A study of Oryza sativa with 216 samples.

Results

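Ghd7, Ghd8 and Hd1 are 3 regulators of heading date in rice, each read from 1 probe set of a rice expression array: Ghd7 (LOC_Os07g15770) on chromosome 7, Ghd8 on chromosome 8 and Hd1 (LOC_Os06g16370) on chromosome 6. These 3 probe sets, chosen by gene, were followed among 57194 probe sets over 210 recombinant inbred lines (RILs) and 6 parental arrays. The RILs, homozygous lines obtained by repeated selfing, descend from a cross of the indica rices Zhenshan 97 and Minghui 63, and flag leaves were taken from each genotype on the day its panicle emerged, in the morning. Each RIL has 1 array with the RNA of both plantings mixed before labelling. Each parent has 3 arrays, labelled as biological replicates, so that only the parents show a spread between arrays of 1 genotype. No treatment or transgene was involved, and no genotype is a near-isogenic line: every line carries a different mosaic of both parental genomes around the 3 genes. By the study's account Zhenshan 97 lacks the Ghd7 locus. Sampling followed the stage and not the date, and days from sowing to heading were not analysed here.

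In rice, day length is read in the leaf, where regulators of heading set the level of florigen, a small protein encoded by Hd3a that travels to the shoot apex and starts flowering. Ghd7, a protein with a CCT domain, delays heading in long days and makes plants taller and panicles larger. Ghd8 is a B subunit of the trimeric transcription factor NF-Y and also delays heading in long days, and Hd1, the rice counterpart of Arabidopsis CONSTANS, promotes heading in short days and delays it in long days. Other genes of the pathway act beside or below them: OsMADS50, a SOC1-like MADS-box gene that promotes flowering, the AP1/FUL-like genes OsMADS14 and OsMADS15, which act downstream of florigen, and the 14-3-3 proteins that bind florigen inside the cell.

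The leaf label was borne out by part of its marker list. The small subunit gene RBCS and the chlorophyll-binding protein gene CAB2R had median values of 14.41 and 14.13 on the log2 scale over the RILs, above more than 99.9% of the probe sets, whereas RBCS1 was at 3.01. Of 6 glutelin (endosperm) genes, GluA2 was at 10.40 and the other 5 had medians between 2.29 and 3.72. Their highest RIL values were 7.51 for GluA1, 5.845 for GluA3, 7.77 for GluB5, 7.18 for GluD1 and 4.09 for GluB4. The highest parental values were 2.72, 2.41, 3.795, 2.73 and 4.11 in the same order. The root transporter gene OsLsi1 was at 9.25. Over the RILs, the Pearson correlation of a member with the glutelins ranged from -0.186 to 0.179, and with OsLsi1 it was -0.257 for Ghd7, 0.184 for Ghd8 and -0.235 for Hd1. Summed over the 6 glutelins, a sum in which GluA2 outweighs the others, the level lay between 9.97 and 11.16 in lines with low Ghd7. It lay between 9.93 and 10.95 in lines with high Ghd7. OsLsi1 had a median of 9.33 in lines with low and 9.10 in lines with high Ghd7, and of 9.36 and 9.09 in lines with low and high Hd1. The part of these genes in the results below was not tested. Medians of the arrays lay between 5.15 and 5.32.

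In the parents, Ghd7 and Ghd8 were higher in Minghui 63 and Hd1 was higher in Zhenshan 97. In RNA of a whole leaf, fewer cells of a type and less RNA per cell cannot be told apart. The 3 arrays of Zhenshan 97 gave 3.94, 4.61 and 4.25 for Ghd7 on the log2 scale, and those of Minghui 63 gave 5.29, 4.93 and 5.13. Ghd8 was at 4.56, 3.84 and 4.23 in Zhenshan 97 and at 5.21, 5.29 and 5.34 in Minghui 63. Hd1 was at 4.69, 4.86 and 4.97 in Zhenshan 97 and at 3.87, 3.995 and 3.87 in Minghui 63. In none of the 3 genes did the arrays of one parent overlap with those of the other, which held for 22.8% of all probe sets. The difference, Minghui 63 minus Zhenshan 97, was 0.85 (SE 0.19, limma adjusted p = 0.0418) for Ghd7, 1.07 (SE 0.19, limma adjusted p = 0.0141) for Ghd8 and -0.93 (SE 0.13, limma adjusted p = 0.00393) for Hd1, in a comparison in which 5.32% of the probe sets passed, 2.86% with the higher value in Minghui 63 and 2.46% with the lower. The exact permutation test of each gene gave p = 0.1 (two-sided), the smallest value that 3 against 3 arrays allow. The call of Ghd7 rests on single arrays: it was lost without any 1 array other than the second of Zhenshan 97, with adjusted p between 0.0531 and 0.162, and that of Ghd8 was lost without the third array of Zhenshan 97 (0.0541) or the first of Minghui 63 (0.0547).

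All 3 genes were dim. Their medians over the RILs, 4.63 for Ghd7, 4.75 for Ghd8 and 4.63 for Hd1, were above those of 39.2%, 41.4% and 39.2% of the probe sets. They varied far more than most probe sets, since 97.7% of the probe sets had a smaller SD over the RILs than Ghd7 or Ghd8 (both 0.81) and 93.02% a smaller SD than Hd1 (0.47). Ghd7 ran from 3.65 to 6.76, Ghd8 from 3.74 to 6.89 and Hd1 from 3.70 to 5.97. The lines reached beyond both parents, mostly upwards: 65 lines had more Ghd7 than any parental array, 72 more Ghd8 and 61 more Hd1, whereas 20, 8 and 2 lines lay below the lowest parental array. A single array per line does not separate a line's own level from array noise, and the SD between arrays of 1 parent was 0.27 for Ghd7, 0.26 for Ghd8 and 0.11 for Hd1.

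**Figure D1:**
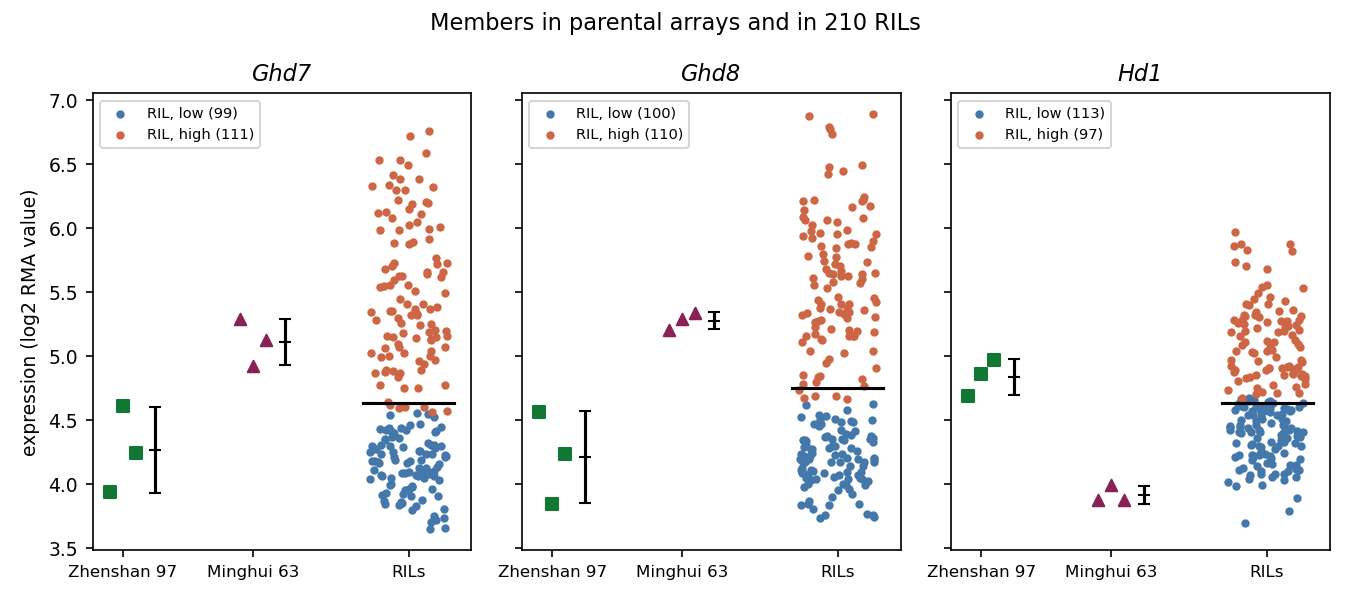
Log2 RMA value (y axis) of Ghd7, Ghd8 and Hd1 in the 3 arrays of each parent (bars: mean and SD) and in 210 RILs, 1 point a line, coloured by low or high cluster with the median as a line. For each gene a large share of the lines lies above every parental array, 65 lines for Ghd7, 72 for Ghd8 and 61 for Hd1.

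Each gene was better described by 2 normal distributions than by 1, and this gave a low and a high cluster of lines. For Ghd7, 99 low lines had a component mean of 4.14, near the level of the parent without the locus, and the other lines, in the high cluster, a mean of 5.42. The low component was narrow, with an SD of 0.23, and the high one wide, with an SD of 0.63. For Ghd8 the clusters held 100 and 110 lines around 4.19 and 5.54, again with a narrow low component (SD 0.23) and a wide high one (SD 0.58). Hd1 separated least: 97 high lines lay around 5.04 and the other lines, in the low cluster, around 4.37, and 91 lines had a posterior under 0.9 for either cluster, against 37 for Ghd7 and 25 for Ghd8. In these counts, lines below the mean of the low component or above that of the high one were taken as clear. Values on both sides of the split were continuous, at 4.56 and 4.57 for Ghd7, 4.63 and 4.66 for Ghd8, and 4.67 and 4.68 for Hd1. Minghui 63, with a mean Hd1 of 3.91, was below most lines of the low cluster, and Zhenshan 97, with 4.84, was below the mean of the high one.

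All 8 combinations of high and low lines were found. The most frequent was low Ghd7, high Ghd8 and low Hd1, with 36 lines (17.1%, exact 95% interval 12.3 to 22.9), and the least frequent low Ghd7, high Ghd8 and high Hd1, with 16 lines (7.62%, 4.42 to 12.1). The shares of the 3 single clusters would give 27.9 and 23.95 lines. High levels of all 3 genes met in 32 lines, and low levels of all 3 in 27. High Hd1 was found in 61 lines with high Ghd7 (54.95% of them) and in 36 of the 99 lines with low Ghd7 (36.4%). The lines are sorted here by measured values, so these counts are a description, and their order depends on the split. At the midpoint between the parental means, where 73.8% of the lines counted as high in Hd1 in place of 46.2%, the first of these combinations held 16 lines and the second 36, and high Ghd7, low Ghd8 and high Hd1 was the most frequent with 43. Without the lines of an unclear cluster, high levels of all 3 genes were the most frequent, in 18 of 85 lines.

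The level of Ghd7 went with that of Hd1, and it did so among the lines with high Ghd7. In these lines, 52.9% of all, Pearson's r was 0.521 (Spearman's rho 0.548, permutation p = 1e-05 for each, the smallest that 100000 resamples can give, adjusted p = 0.00012 over 12 within-cluster correlations), and it was 0.499 once the 2 lines most distant from the median were left out. In the 99 lines with low Ghd7, r was -0.016 (rho -0.016, permutation p = 0.877). Among lines with high Ghd7, the median of Ghd7 was 5.14 where Hd1 was low (50 lines) and 5.88 where Hd1 was high (61 lines). The 3 lines with the most Ghd7, R171, R160 and R44, at 6.76, 6.72 and 6.59, had Hd1 values of 5.495, 5.28 and 5.21, all in the high cluster. Within the clusters of Hd1 the relation was not detected, with r of 0.046 (permutation p = 0.629) in low and -0.027 (permutation p = 0.793) in high lines. Whether r differs between the clusters was not tested. The lines with low Ghd7 leave little room for a relation, since their component had an SD of 0.23, beside 0.27 between arrays of 1 parent.

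Among the lines with high Ghd8, Ghd8 was lower where Ghd7 was higher. In these 110 lines r was -0.360 (rho -0.356, permutation p = 6e-05, adjusted p = 0.00036 over the 12), and -0.346 once the 2 most distant lines were left out. In the 100 lines with low Ghd8, r was -0.205 (permutation p = 0.0415, adjusted p = 0.166). Within the clusters of Ghd7 the relation was not detected. There r was 0.007 (permutation p = 0.941) in lines with high Ghd7 and -0.173 (permutation p = 0.0877, adjusted p = 0.263) in lines with low Ghd7. The median of Ghd8 among its high lines was 5.76 where Ghd7 was low (52 lines) and 5.39 where Ghd7 was high (58 lines). R174, R53 and R184, the lines with the most Ghd8 at 6.89, 6.88 and 6.79, had Ghd7 values of 3.87, 4.44 and 4.19, all in the low cluster. After removal of the first 5 principal components of the RIL arrays, r in the high lines was -0.230 (permutation p = 0.0156, adjusted p = 0.0937).

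Ghd8 and Hd1 showed no relation that passed the test in any cluster, with r between -0.110 and 0.022 and the smallest permutation p at 0.275. Pooled over all 210 lines, the measure that the study used for co-expression, r was 0.289 for Ghd7 and Hd1 (rho 0.254, permutation p = 4e-05, adjusted p = 0.00012 over 3 pairs), -0.139 for Ghd7 and Ghd8 (rho -0.146, permutation p = 0.0445, adjusted p = 0.0667) and -0.085 for Ghd8 and Hd1 (rho -0.098, permutation p = 0.22). These pooled values mix the clusters. The labels give no batch for the RIL arrays. With blocks of 10 consecutive line numbers removed, r was 0.455 for Ghd7 and Hd1 in the high Ghd7 lines and -0.295 for Ghd7 and Ghd8 in the high Ghd8 lines.

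**Figure D2:**
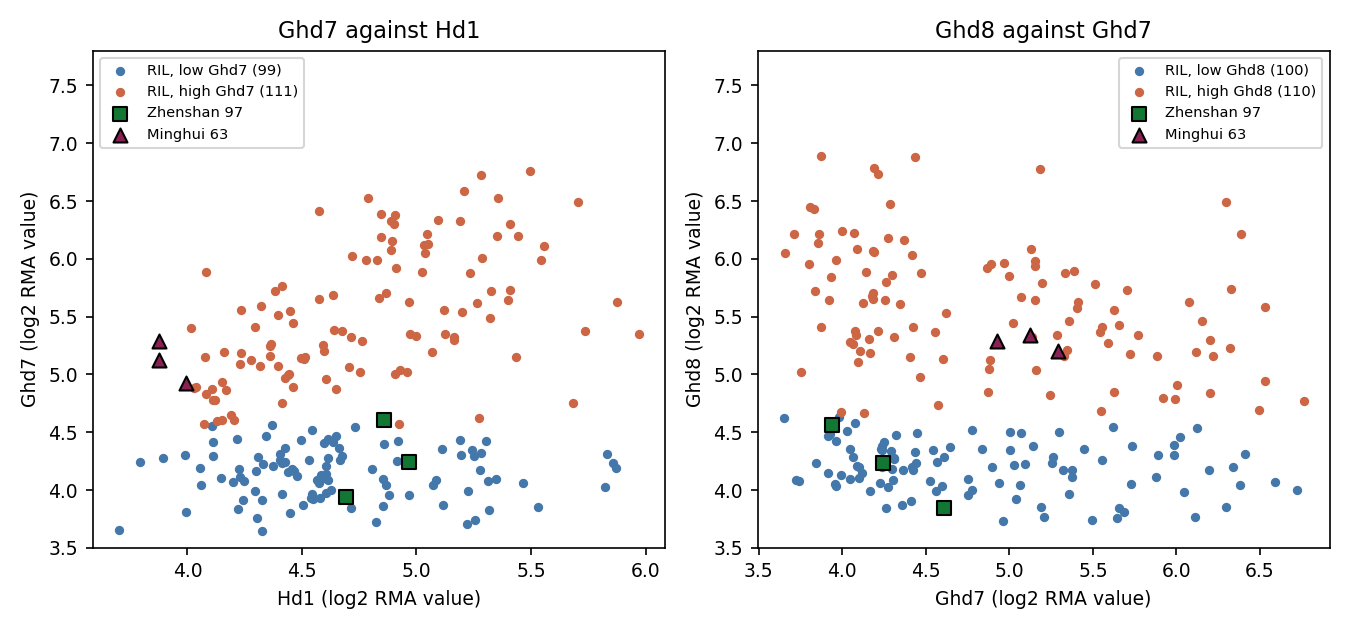
Log2 RMA values of Ghd7 against Hd1, with lines coloured by the cluster of Ghd7, and of Ghd8 against Ghd7, with lines coloured by the cluster of Ghd8, and with parental arrays as squares and triangles. Lines with high Ghd7 rise to the right (r = 0.521), and lines with high Ghd8 fall to the right (r = -0.360). Those with low Ghd7 vary little in Ghd7 and have r = -0.016.

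The probe sets most like each member over the 210 RILs lay on its own chromosome, as far as a chromosome was known. For Ghd7, 6 probe sets had r over 0.60 and 30 had r below -0.52, the limits used by the study, and all 13 of these with a known chromosome lay on chromosome 7. The 5 probe sets with the highest r, between 0.6445 and 0.711, have no gene in the tables used here. At the other end, where r ran from -0.720 to -0.7745, stood LOC4342779 (-0.727) and LOC4343183 (-0.720), both on chromosome 7, and 3 probe sets without a gene.

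Ghd8 had the closest companions, with 41 probe sets over 0.60 and 59 below -0.52, and all 50 with a known chromosome lay on chromosome 8. A probe set without a gene led with r = 0.840. It was followed by both probe sets of LOC4344766 (0.832 and 0.827), with 20 annotated genes between it and Ghd8, and among the 5 highest also stood LOC4344823 (0.813), with 39 genes between. The lowest were LOC9268385 (-0.843), LOC4344881 (-0.818), LOC4344975 (-0.758), a probe set without a gene (-0.742) and LOC9271323 (-0.739), and the 4 genes lie on chromosome 8, farther from Ghd8 than those 2 genes where the distance is known.

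Hd1 had fewer, 8 over 0.60 and 8 below -0.52, and all 8 with a known chromosome lay on chromosome 6. Among the 5 highest, LOC4340720 (0.715) lies closest, with 28 genes between it and Hd1, and LOC4340595 (0.644) lies farthest, with 160 genes between. LOC4340604 (0.650), the DNA polymerase lambda gene OsPolL, stands between them on the chromosome, and the other 2 probe sets (0.716 and 0.655) have no gene. Among the 5 lowest were LOC4340694 (-0.611), with 49 genes between, LOC4340647 (-0.607), LOC4340717 (-0.5865), with 30 between, and 2 probe sets without a gene (-0.716 and -0.671). In a population of RILs, neighbouring genes are inherited together.

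Within the lines with high Ghd7 alone, the probe sets most like Ghd7 included those most like Hd1. Hd1, with r = 0.521, was preceded there by 4 probe sets: LOC4340720 (0.558), LOC4340604 (0.535) and 2 without a gene (0.553 and 0.537). LOC4340720, LOC4340604 and the one at 0.553 are also 3 of the 5 probe sets most like Hd1 over all lines. Of the 9 probe sets besides the regulators whose r was at least as far from 0 as that of Hd1, 4 have a known chromosome, and all 4 lie on chromosome 6, the chromosome of Hd1, and 0 on that of Ghd7. Hd1 and its chromosomal neighbours cannot be told apart by their likeness to Ghd7. Lines of the high cluster of Ghd7 were looked at in this way after the data had been seen.

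To ask which probe sets go with each gene at fixed levels of the other genes, all 3 were entered together as continuous covariates in 1 limma fit over the RILs. With each gene entered alone, 1.93% of the probe sets passed for Ghd7, 1.03% for Ghd8 and 11.3% for Hd1. In the joint fit, of 57191 probe sets, 513 passed for Ghd7 (0.897%), 558 for Ghd8 (0.976%, with 0.46% positive and 0.516% negative) and 5010 for Hd1 (8.76%, with 4.83% positive and 3.93% negative). On their own chromosome, where the annotation gives one, 6.32% of the probe sets passed for Ghd7 against 1.11% on the other chromosomes, 12.97% against 0.459% for Ghd8, and 20.4% against 13.2% for Hd1. Chromosome 8 held 67.2% of the Ghd8 calls with a known chromosome, chromosome 7 held 32.2% of those of Ghd7, and chromosome 6 held 11.7% of those of Hd1. The wide reach of Hd1 went with the main axes of variation among the arrays: its absolute correlation with the first and the fifth principal component was 0.335 and 0.408, and with the first 5 components removed 323 probe sets passed in place of 5010. Ghd8 had an absolute correlation of 0.637 with the fourth component, and 523 passed for it after the same step.

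**Figure D3:**
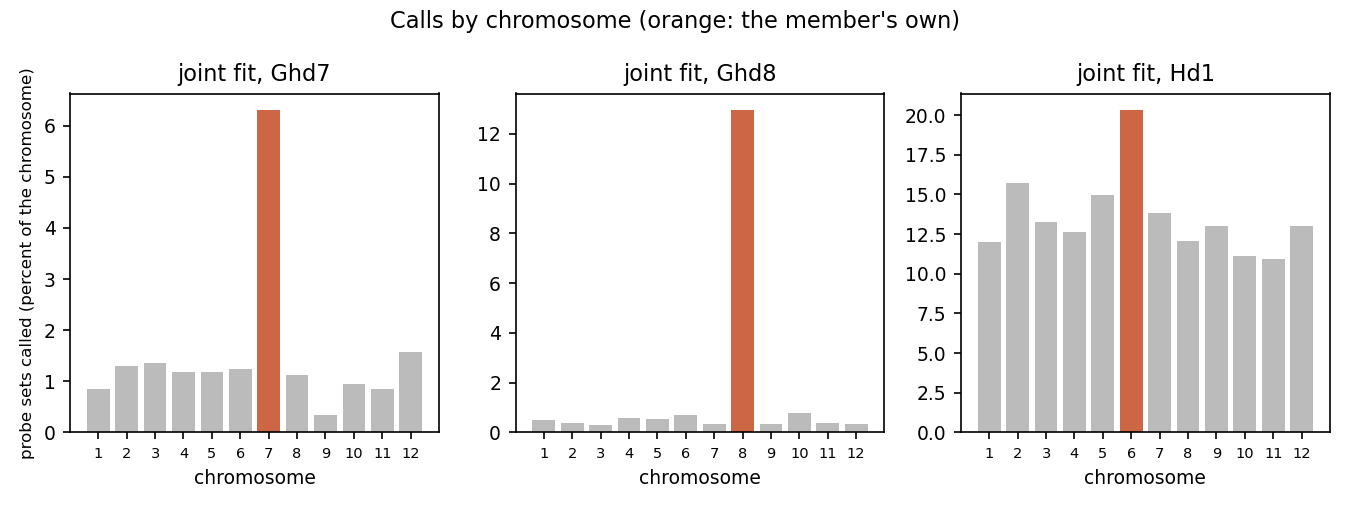
Share of the probe sets of each chromosome (y axis, percent) that passed at an adjusted p under 0.05 on Ghd7, Ghd8 or Hd1 in the joint fit. The own chromosome of each gene, in orange, is the highest bar in each panel, at 6.32%, 12.97% and 20.4%, and for Hd1 the other chromosomes reach up to 15.8%.

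Among the genes of the flowering pathway, 51 of 65 listed genes had a probe set, and 5 of the 51 (9.80%) passed on Ghd7 in the joint fit, 4 with a positive slope (0.381% of all probe sets) and 1 with a negative slope (0.516% of all probe sets). With only the brighter probe sets tested (21940, with the listed genes kept), 2.74% of the probe sets and 5 of the 51 passed on Ghd7. The median slope of the 51 in the joint fit over all probe sets was 0.0082, and that of all probe sets 0.0015. OsMADS50 had the strongest relation: it rose by 0.22 on the log2 scale for each log2 unit of Ghd7 (SE 0.04, limma adjusted p = 3.48e-05). OsMFT1, a gene of the florigen family related to MOTHER OF FT, rose by 0.25 (SE 0.05, limma adjusted p = 0.000194). OsMADS55, an SVP-like MADS-box gene, rose by 0.11 (SE 0.03, limma adjusted p = 0.0119), and OsMADS18, an AP1/FUL-like gene, by 0.05 (SE 0.01, limma adjusted p = 0.035). Hd3a, the florigen gene, fell by 0.33 (SE 0.09, limma adjusted p = 0.0303). OsMADS18 lies on chromosome 7, as Ghd7 does. Hd3a, OsMFT1 and OsMADS55 lie on chromosome 6, as Hd1 does, and OsMADS50 lies on chromosome 3.

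In the other listed groups no gene passed on Ghd7 in this fit, among 7 clock and PRR genes, 5 light input genes, 10 NF-Y subunits, 11 other MADS-box genes, 4 other heading date regulators and 2 florigen partners. OsFTL1, another member of the florigen family, had a slope of 0.23 (SE 0.07, limma adjusted p = 0.0973) in the joint fit and passed with Ghd7 alone (slope 0.25, limma adjusted p = 0.0316), and OsMADS15 one of 0.13 (SE 0.05, limma adjusted p = 0.192). The calls of Hd3a, OsMADS18 and OsMADS55 were lost when Ghd7 and the other members entered as normal scores of their ranks, with adjusted p of 0.236, 0.239 and 0.226. The call of OsMADS18 was also lost with blocks of 10 lines as a factor (limma adjusted p = 0.0599), where OsPRR37, a clock-related gene, passed (0.0462), and that of OsMADS55 with the first 5 principal components of the arrays removed (0.0511), where the NF-Y gene OsHAP3C passed (0.0403). Within the lines with high Ghd7 alone, OsMADS55 (slope 0.18, limma adjusted p = 0.0306) and OsMADS22 (slope 0.17, limma adjusted p = 0.0262), both SVP-like, passed among 1.07% of all probe sets, and Hd3a (-0.45, limma adjusted p = 0.4), OsMFT1 (0.31, limma adjusted p = 0.0581), OsMADS50 (0.13, limma adjusted p = 0.585) and OsMADS18 (0.07, limma adjusted p = 0.192) did not.

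In limma, 0 genes of the 51 passed on Ghd8 in the joint fit (smallest adjusted p = 0.241), beside 0.976% of all probe sets, and 7 of the 51 had an unadjusted p under 0.05 (13.7%, and 10.4% of all probe sets). The median slope on Ghd8 was -0.0067 over the list and 0.0023 over all probe sets. Of the 10 NF-Y subunits other than Ghd8 itself, partners or relatives of the same kind of protein, none passed with any of the 3 regulators in the joint fit. Under other settings OsHAP3C passed on Ghd7, as given above, and on Hd1 OsHAP3B (limma adjusted p = 0.0345) and OsHAP2B (0.0387) passed after quantile normalization and OsHAP2B (0.035) among the brighter probe sets.

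On Hd1, 6 of the 51 passed (11.8%, and 8.76% of all probe sets), 2 with a positive slope and 4 with a negative one. The share is near that of all probe sets. With only the brighter probe sets tested, 20.2% of the probe sets and 9 of the 51 passed on Hd1. PHYA (limma adjusted p = 0.0396) and OsPRR1 (0.0403) passed there besides OsHAP2B. OsMADS50 fell by 0.37 for each log2 unit of Hd1 (SE 0.06, limma adjusted p = 1.28e-05), against a positive slope on Ghd7. OsMADS56, also SOC1-like, fell by 0.13 (SE 0.03, limma adjusted p = 0.00729), and OsCOP1, whose Arabidopsis counterpart is a ubiquitin ligase of light signalling, fell by 0.12 (SE 0.03, limma adjusted p = 0.00212). The 14-3-3 genes went opposite ways, OsGF14b with a slope of 0.15 (SE 0.04, limma adjusted p = 0.0128) and OsGF14c with a slope of -0.08 (SE 0.03, limma adjusted p = 0.0408). OsMADS1, a SEPALLATA-like gene of floral organ identity, had the largest slope, 0.63 (SE 0.12, limma adjusted p = 7.8e-05). With the first 5 principal components removed only OsMADS50 (-0.35) and OsMADS1 (0.54) passed on Hd1 among these 6.

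**Figure D4:**
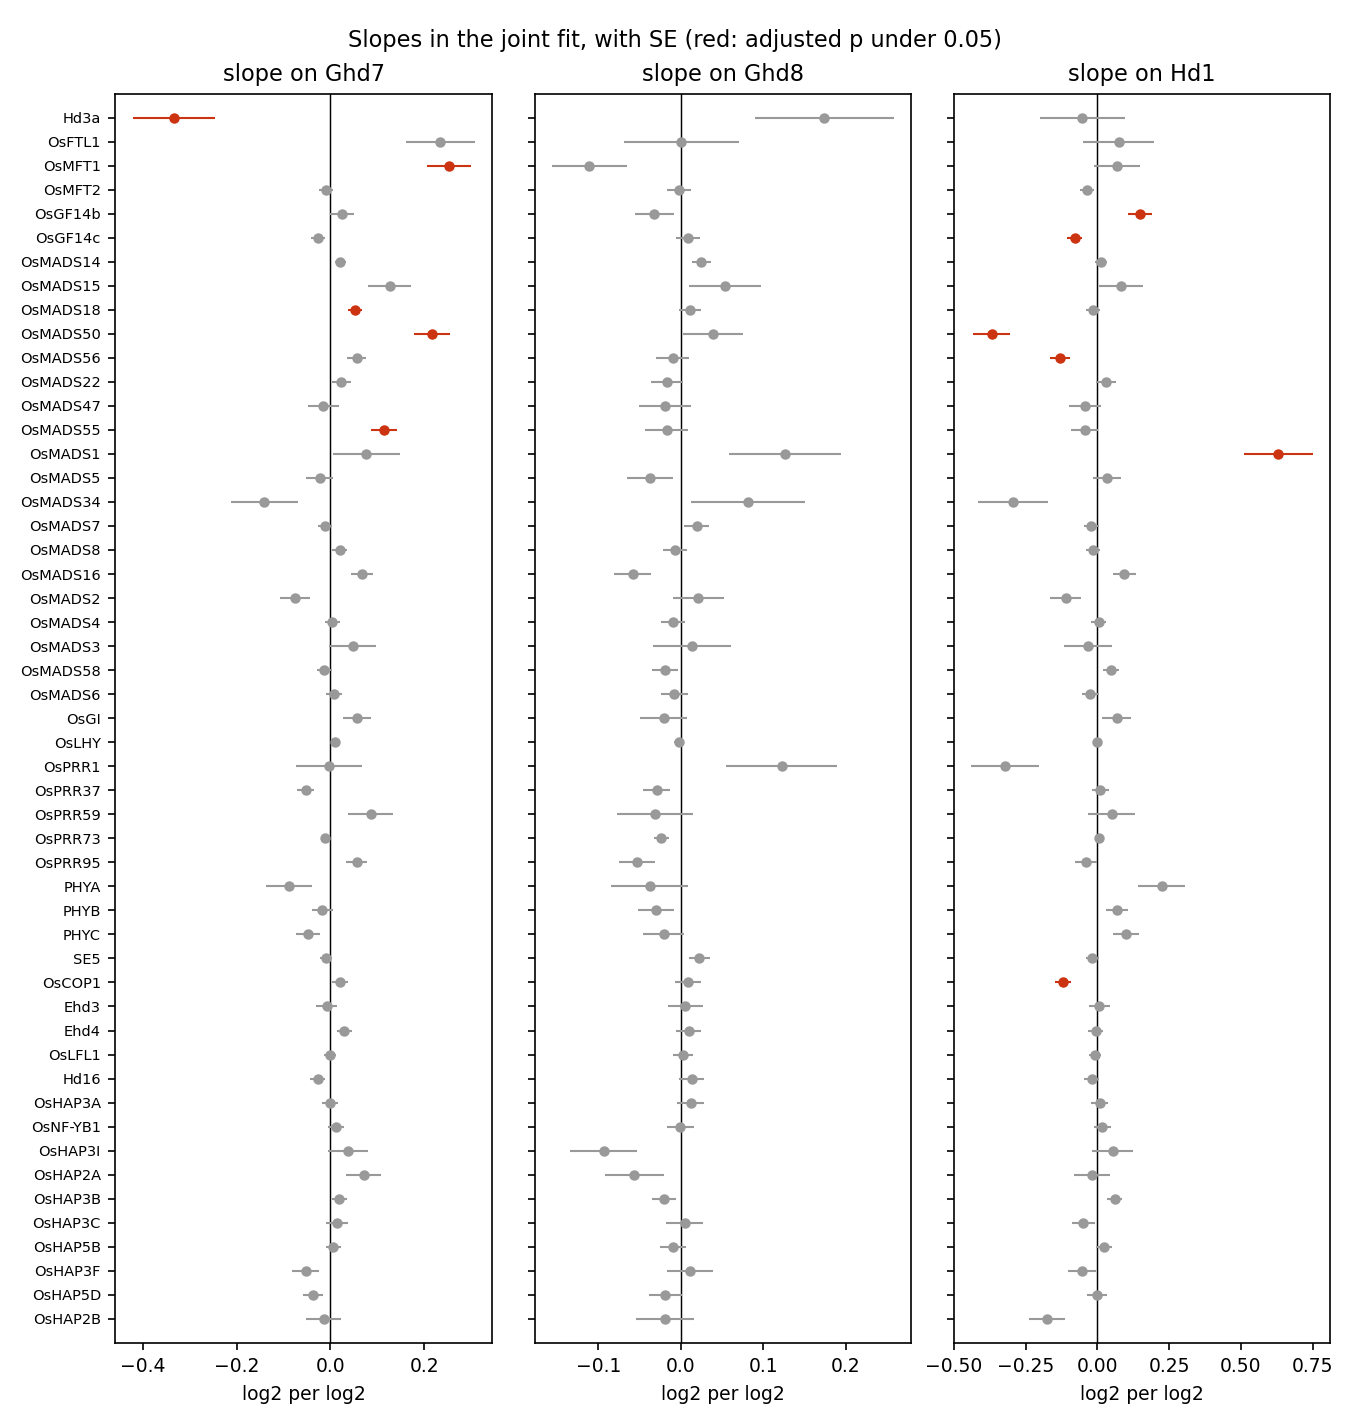
Slope of each of the 51 flowering genes on Ghd7, Ghd8 and Hd1 in the joint fit (x axis, log2 units per log2 unit of the regulator, with SE). Points in red passed at an adjusted p under 0.05: 5 on Ghd7, none on Ghd8 and 6 on Hd1, and OsMADS50 stands on opposite sides of 0 for Ghd7 and Hd1.

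OsMADS50 had overlapping values in both parents, at 8.58, 8.74 and 9.00 in Zhenshan 97 and at 8.78, 8.915 and 8.66 in Minghui 63 (difference 0.01, SE 0.18, limma adjusted p = 0.991), and it ran from 6.63 to 9.51 in the RILs around a median of 8.22. Its median was 8.52 in the 50 lines with high Ghd7 and low Hd1, 8.21 in the 61 lines with both high, 8.10 in the 63 with both low and 8.01 in the 36 with low Ghd7 and high Hd1. In the 8 combinations the medians ran from 7.97 with all 3 genes low to 8.63 with high Ghd7, high Ghd8 and low Hd1, and the ranges of all 8 overlapped. In that last combination no line of 26 was below 8.15.

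Hd3a separated the parents widely, at 11.47, 12.09 and 11.65 in Zhenshan 97 and 8.13, 8.41 and 8.95 in Minghui 63 (difference -3.24, SE 0.25, limma adjusted p = 0.000138). It was read here from its whole probe set, whereas the study recalculated it from selected probes, and where a parent's sequence differs from a probe, less binding and less RNA cannot be told apart. The RILs ran from 5.79 to 11.85 around a median of 10.42. The median was 10.63 in the 99 lines with low Ghd7 and 10.31 in the lines with high Ghd7. In the 8 combinations it was 10.52, 10.56, 10.66 and 10.69 in the 4 with low Ghd7, and 10.15 and 10.05 with high Ghd7 and low Ghd8, and 10.35 and 10.55 with high Ghd7 and high Ghd8.

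The medians of Hd3a were thus close together, and the combinations differed more in their lowest lines. Outside the 61 lines high in both Ghd7 and Hd1, no line had an Hd3a value below 8.29. Below that limit lay 11 lines, from 5.79 to 8.28. By the choice of this limit all of them are high in both genes. For 4 of the 11 the Hd1 cluster was unclear, with a posterior under 0.9. R5, the lowest in Hd3a, had a Ghd7 value of 6.20, a Ghd8 value of 4.84 and an Hd1 value of 5.445. R94, R103 and R21 followed at 6.50, 6.72 and 6.81 of Hd3a. Among the 11 lines Ghd7 was at least 5.35 and Hd1 at least 4.83, and 5 of the 11 were low in Ghd8. The lowest lines were singled out after their values had been seen, and no test was made on them. The interaction of Ghd7 and Hd1 in the fit, which is a test over all lines, passed for none of the 51 genes (smallest limma adjusted p = 0.9997, with 2 of the 51, or 3.92%, at an unadjusted p under 0.05, and 4.13% of all probe sets).

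**Figure D5:**
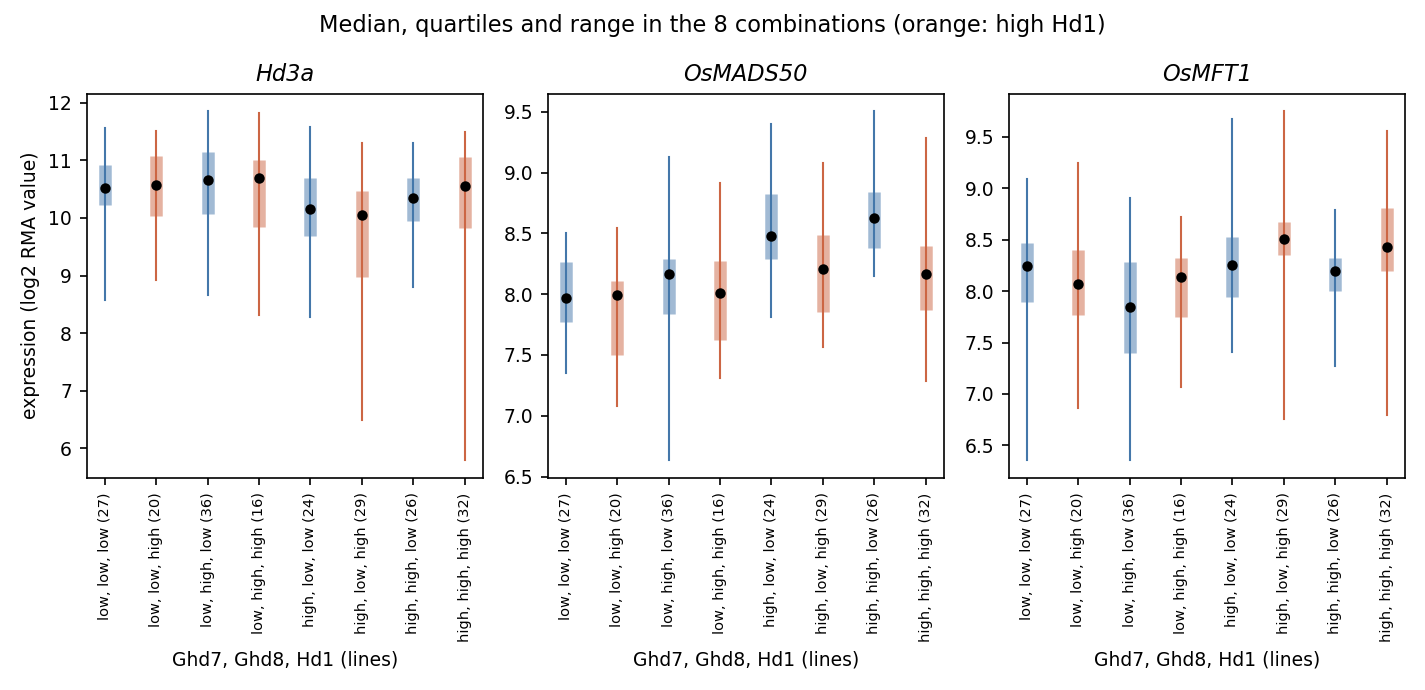
Log2 RMA values of Hd3a, OsMADS50 and OsMFT1 in the 8 combinations of low and high Ghd7, Ghd8 and Hd1 (dot: median, thick bar: quartiles, thin line: range, orange: high Hd1, with the number of lines in brackets). The lowest Hd3a values, 5.79 and 6.50, stand in combinations with high Ghd7 and high Hd1, and OsMADS50 is highest, with medians of 8.47 and 8.63, where Ghd7 is high and Hd1 low.

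OsMFT1 was at 5.75, 7.765 and 5.60 in Zhenshan 97 and at 9.16, 8.34 and 8.90 in Minghui 63 (difference 2.43, SE 0.53, limma adjusted p = 0.0384, lost without any 1 array other than the second of Zhenshan 97, with adjusted p between 0.0506 and 0.15), and ran from 6.35 to 9.75 in the RILs. Its medians were between 7.85 and 8.24 in the 4 combinations with low Ghd7 and between 8.20 and 8.51 in the 4 with high Ghd7. OsMADS15 had medians between 10.43 and 10.87 over the 8 combinations, within a range of 9.22 to 12.09 over the lines. OsMADS14, at 12.92 to 13.03 in the same combinations, hardly varied, with an SD of 0.13 over the RILs.

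Interactions were few over the whole array. The product of Ghd7 and Hd1 passed for 2 probe sets in limma (0.0035%, with 4.13% at an unadjusted p under 0.05), both on chromosome 10: LOC4348876 with a slope of -0.52 (SE 0.10, adjusted p = 0.0234) and LOC4348886 with a slope of 0.81 (SE 0.16, adjusted p = 0.0234). Neither is a gene of the lists, and no probe set passed with blocks of 10 lines as a factor or after quantile normalization. The products of Ghd7 with Ghd8 and of Ghd8 with Hd1 passed for 0 probe sets, with 10.7% and 3.82% at an unadjusted p under 0.05, and for 0 of the 51 genes, of which 8 and 3 had an unadjusted p under 0.05.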

How the data were processed

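The deposited values are log2 expression values per probe set, made by the authors with RMA in the affy package. The sources used here give no version of it. Values were used as they stand, without 187 control probe sets. Parents and RILs were tested with limma 3.58.1 in R 4.3.3 (lmFit, eBayes with trend), with Benjamini-Hochberg adjustment over all probe sets and a threshold of 0.05. In the RIL fits the values of the regulators were continuous covariates, alone, together or with 1 product, and the regulators themselves were not tested. P-values of the parents measure the spread between arrays that the labels call biological replicates. The labels do not say whether these came from separate plantings. Clusters came from a normal mixture of 2 components split at a posterior of 0.5, required to have the lower BIC, at least 6 lines each and an Ashman's D over 2. Posteriors were overridden beyond the component means: lines below the low mean went wholly to the low cluster, and lines above the high mean wholly to the high one. Correlations (Python 3.11.15, numpy 2.4.6) had two-sided permutation p-values from 100000 resamples. Medians, counts and ranges by combination are descriptions.

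Genes were assigned by GEO's platform annotation, with 1 gene for 22436 probe sets and several for 95, updated by a RefSeq gene table, and from tables of the study for the members, OsFTL1, OsCOP1 and OsPRR59. The numbers of genes between 2 genes are from that RefSeq table. Named genes are the 3 regulators, listed genes that passed in the joint fit, the 5 highest and 5 lowest r for each regulator, and Hd3a, OsMADS50, OsMFT1, OsMADS15 and OsMADS14 by combination. Outside this rule, tissue markers are named, and OsFTL1, the 2 genes of an interaction and the listed genes that passed only under another setting were chosen after their values were seen. Where more than 1 probe set reads a gene, the one named by the study or else the brightest was taken. Of 65 listed genes, 14 had no probe set in these tables and were not analysed here. The regulators and the lists were chosen with earlier results of these data known. The routines were tested on simulated data: in the joint fit, slopes of 0.4 SD were recovered in 81.8% to 88.2% of cases and slopes of 0.2 SD in 2.94% to 9.09%, and in the parents 33% of differences of 1 and 82% of differences of 2 on the log2 scale were called. Of the simulated calls in the joint fit, 6.25% were false for Ghd7, 5.71% for Ghd8 and 9.09% for Hd1. In the parents 2.54% were false. The simulated noise was independent between probe sets, so these shares do not cover variation that many probe sets share across the lines. Single arrays per line limit precision.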

Additional observations from a re-analysis of the deposited data

How the results depend on the processing

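Most results kept their direction and their side of the threshold: 70.7% of the alternative values of the main comparisons did so or, for counts, stayed within 1.5 times, and for shares of lines within the exact interval. Replicate numbers of the parents do not pair the arrays, as same-numbered arrays had correlated deviations of -0.202, -0.260 and -0.071, and 0 of the 3 Zhenshan 97 arrays went best with its own number. With the replicate number as a block, 2312 probe sets passed between the parents in place of 3043, and the difference of Ghd7 (0.85) had an adjusted p of 0.104 and that of OsMFT1 one of 0.0654, while Ghd8, Hd1 and Hd3a kept their calls. Leaving out 1 parental array gave 1544 (without the first of Minghui 63) to 3418 calls. It gave 1947 without the first and 1849 without the third array of Zhenshan 97, and differences of 0.69 to 1.02 for Ghd7, 0.88 to 1.24 for Ghd8 and -0.999 to -0.86 for Hd1. Removing 5 principal components moved r of Ghd7 and Ghd8 over all lines to -0.159 (adjusted p = 0.0325) and within the high Ghd8 lines to -0.230, Hd1 from 6455 to 437 calls alone and from 5010 to 323 in the joint fit, and the listed genes called to 2 on Ghd8 (OsMADS55 and OsPRR95) and 2 on Hd1. The slopes of OsGF14c and OsCOP1 on Hd1 then changed sign, to 0.0020 and 0.0086. Normal scores gave 264 calls for Ghd7 alone (1103 as measured) and 210 in the joint fit, 3929 and 3249 for Hd1, 1 for the product of Ghd7 and Hd1, 2 for that of Ghd7 and Ghd8, and 2 listed genes on Ghd7 (OsMADS50 and OsMFT1). Quantile normalization gave 9727 and 7978 calls for Hd1 and 0 for the product of Ghd7 and Hd1, as did blocks of 10 lines. Fewer probe sets tested, the brighter ones only, gave 355 for Ghd8 in the joint fit. In the high Ghd7 lines alone, 2 listed genes passed on Ghd7. A split at the parental midpoint moved the shares of 7 combinations, to 8.10% with all 3 genes low, 17.6% with only Hd1 high, 7.62% with only Ghd8 high, 17.1% with only Ghd7 low, 3.81% with only Ghd7 high, 20.5% with only Ghd8 low and 6.67% with only Hd1 low. Without lines of a posterior under 0.9, which left 85, the shares were 7.06% with all low, 5.88% with only Hd1 high, 11.8% with only Ghd8 high, 7.06% with only Ghd7 high, 20% with only Ghd8 low and 21.2% with all high. Where no fewer samples or probe sets were used, the cause was not tested. The alternatives within a high cluster were added after the data had been seen.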

Other observations

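Within the high cluster of each of the other 2 regulators, the most similar genes were described too, without a test. In the 110 lines with high Ghd8 the highest were the probe sets of LOC4344766 (0.491 and 0.479, with 20 genes between) and LOC4344981 (0.482), on chromosome 8 like Ghd8. Ghd7, at -0.360, was exceeded in the negative direction by 25 probe sets, of which 8 have a known chromosome, 5 on chromosome 8 and 1 on chromosome 7. In the 97 lines with high Hd1 the 5 probe sets most like Hd1 lay on other chromosomes. LOC4325444 (0.530) and LOC4324029 (0.526) lay on chromosome 1, and OsPPT2 (LOC4345334, 0.517) on chromosome 8. LOC4347810 (0.515) lay on chromosome 9 and LOC4332833 (0.514) on chromosome 3. Of the 5 lowest there, from -0.450 to -0.426, only LOC4327723 (-0.431) has a gene, and it lies on chromosome 1.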
